A study of Mus musculus with 6 samples.

Results

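The immunity-related GTPases (IRGs) described here were the 6 genes *Irgm1*, *Irgm2*, *Igtp*, *Iigp1*, *Tgtp1* and *Tgtp2*, out of 36137 genes with a quantified transcript in bone marrow–derived macrophages (BMDMs), which are macrophages grown from marrow cells in culture. The 6 genes were chosen by name from results of the comparison below, in which most of them had stood out, so their differences between genotypes are given as a description and not as a test. The comparison was between WT and Drp1 KO BMDMs that had been kept without serum at low oxygen (hypoxia with serum starvation, HSS) for 8 hours, a culture condition meant to resemble ischemic tissue, with 3 libraries of poly(A) RNA per genotype. DRP1, encoded by *Dnm1l*, is the GTPase that divides mitochondria. WT cells came from *LysM*-Cre+/- *Drp1*+/+ mice and Drp1 KO cells from *LysM*-Cre+/- *Drp1* fl/fl mice, so both genotypes carried the Cre recombinase, which is expressed from the lysozyme M promoter of the myeloid lineage. The Cre line was on a C57BL/6J background, marrow of a pair of mice per genotype was pooled, and both sexes of adult mice were used in the study. The labels call the 3 libraries of a genotype biological replicates, but no source used here says whether each came from its own pool, so that errors given here measure the spread between these libraries.

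IRGs are GTPases that interferons induce strongly in mouse cells and that guard cells against parasites and bacteria living in vacuoles. Effector IRGs load onto the membrane of the vacuole and break it open, and their switch between the GDP-bound and the GTP-bound state decides where they go. Regulatory IRGs, the IRGM proteins, sit on the cell's own membranes and hold effectors in the inactive state there, and they have also been placed on mitochondria, lysosomes and lipid droplets. *Irgm1*, *Irgm2* and *Igtp* (Irgm3) encode the regulators. *Iigp1* (Irga6), *Tgtp1* and *Tgtp2* (Irgb6) encode effectors.

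The regulators and effectors can be told apart by a single codon in the loop that grips the phosphates of the nucleotide, and this stretch is shown because it sorts the 6 genes. The regulators carry methionine where effectors, like most GTPases, carry lysine. The coding bases of the loop are given 5′ to 3′ on the coding strand from the GENCODE transcripts of GRCm39, with the deciding codon in capitals. They lie in the last exon of the transcripts read, at chr11:58097101-58097124 (plus strand) in *Igtp*, chr11:48757588-48757611 (minus strand) in *Irgm1* and chr11:58110521-58110544 (plus strand) in *Irgm2*, where all 24 bases were the same. In *Tgtp1* they lie at chr11:48878494-48878517 and in *Tgtp2* at chr11:48950361-48950384, both on the minus strand, and were again the same in both genes.
Igtp, Irgm1 and Irgm2: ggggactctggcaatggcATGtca
Tgtp1 and Tgtp2: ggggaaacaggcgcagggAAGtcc
*Iigp1* also had a lysine codon at this place. Over the whole translated proteins, *Tgtp1* and *Tgtp2* were 100% identical over 415 residues, although their genes are separate. The regulators were 45.9% to 49.7% identical to each other, *Iigp1* was 42.7% identical to the Tgtp proteins, and a regulator and an effector were 26.7% to 30.4% identical.

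Stretches upstream of the start sites are shown because 4 of the genes share the same pair of elements there. A gamma-activated site (GAS, letters TTCNNNGAA) is an element through which interferon-gamma acts on its target genes, and an interferon-stimulated response element (ISRE, letters GAAANNGAAA) is bound by a complex that holds STAT2 and IRF9, or by IRF1. RefSeq promoters of GRCm38.p6, from 250 bases before to 50 after each start, were found for 5 of the 6 genes and searched on both strands for both motifs, with overlapping matches kept. *Iigp1* had no entry. The windows below are written 5′ to 3′ on the strand of the gene, with matches in capitals. They are chr11:58199501-58199541 (plus strand) for *Igtp*, chr11:58214892-58214932 (plus) for *Irgm2*, chr11:48992304-48992344 (minus) for *Tgtp1*, chr11:49064263-49064303 (minus) for *Tgtp2* and chr11:48871425-48871460 (minus) for *Irgm1*.
Igtp: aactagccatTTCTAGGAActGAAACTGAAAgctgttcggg
Irgm2: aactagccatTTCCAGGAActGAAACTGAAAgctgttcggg
Tgtp1: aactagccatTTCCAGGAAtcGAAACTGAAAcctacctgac
Tgtp2: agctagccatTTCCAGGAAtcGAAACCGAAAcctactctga
Irgm1: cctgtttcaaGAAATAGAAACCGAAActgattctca

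A GAS was followed by an ISRE after a gap of 2 bases in *Igtp*, *Irgm2*, *Tgtp1* and *Tgtp2*, starting 45, 75, 88 and 81 bases before the start site. *Irgm1* had no GAS match in its window and 2 ISRE matches that overlapped each other, starting 30 and 24 bases before the start. Of all 32851 promoters of the table, 8.30% held a GAS match, 3.44% an ISRE match and 0.454% both. Both motifs with a gap of exactly 2 bases, a spacing read from these sequences, were found in 5 promoters (0.0152%), those of the 4 genes above and of *Gm12185*, another IRG gene of the same chromosome. Over the whole 300-base promoters, *Igtp* and *Irgm2* were 73.5% identical and *Tgtp1* and *Tgtp2* 67.7%, and the other pairs of the 5 genes 46.4% to 54.2%. Identity outside the elements alone was not measured. The motifs found are letter matches in paralogous genes, and no binding was measured.

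**Figure D1:**
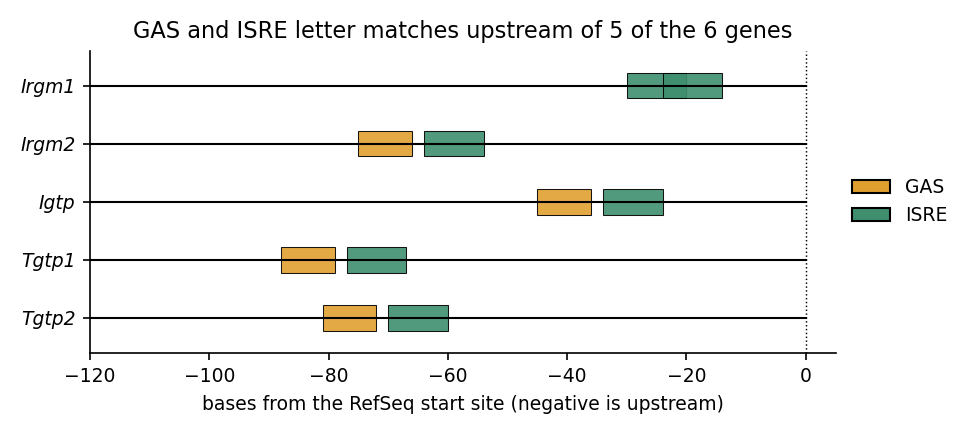
Positions of GAS (yellow) and ISRE (green) letter matches in bases from the RefSeq start site, for the 5 genes with a promoter in the table. In *Igtp*, *Irgm2*, *Tgtp1* and *Tgtp2* the GAS lies 2 bases upstream of the ISRE, and *Irgm1* shows 2 overlapping ISRE matches.

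The libraries held 23389488 to 32231206 estimated reads each. Levels are given as CPM, the counts scaled to the normalized library size, and log2FC is the log2 fold change of Drp1 KO over WT with its standard error (SE). *Dnm1l*, the targeted gene (ENSMUSG00000022789), was at 72.7, 69.9 and 75.1 CPM in WT and 58.7, 60.7 and 66.3 CPM in Drp1 KO libraries, so that the groups did not overlap, and its log2FC of -0.23 (SE 0.092) did not meet the threshold (adjusted p = 0.248, edgeR's quasi-likelihood test with Benjamini-Hochberg adjustment, from 0.0738 to 0.519 under other settings). Which exons its reads came from is not shown by these data. The study reports by immunoblot that DRP1 protein was deleted in BMDMs of the myeloid knockout mice, compared there with *Drp1* fl/fl controls. Libraries 1 of both genotypes stood apart. A chi-square statistic over all genes, per degree of freedom, was 29.4 and 28.6 between WT library 1 and WT libraries 2 and 3 but 9.50 between those 2, and it was 30.6 and 39.6 between Drp1 KO library 1 and the others of its group but 18.1 between those. The values of the 6 genes and the counts of called genes in the lists of the pathway are therefore also given without both libraries 1. Of the macrophage markers, 9 of 9 were detected, at a sum of 14879 to 16375 CPM in WT and 13113 to 15496 CPM in Drp1 KO. In bulk RNA, a change in the RNA of each cell and a change in the share of cells that express a gene cannot be told apart.

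All 6 IRG genes passed the filter of at least 10 counts over the 6 libraries, and all 6 had a higher mean CPM in Drp1 KO BMDMs, though the mean TPM of *Tgtp1* was lower there. In 5 of them every Drp1 KO library lay above every WT library, which was also the case for 2158 (11.7%) of the 18506 genes tested. The same 5 genes had an adjusted p under 0.05 (edgeR). Over all genes, 621 (3.36%) did in either direction and 424 (2.29%) did with a higher level in Drp1 KO. With libraries of 1 number taken as a pair, which the labels do not state, the 5 genes were called again in this paired fit. Over all genes, 1246 (6.73%) were called in that direction. Because the genes were selected on this contrast, nothing is read from these counts. The median log2FC of the 6 genes was 1.74, where that of all genes tested was 0.0046.

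**Figure D2:**
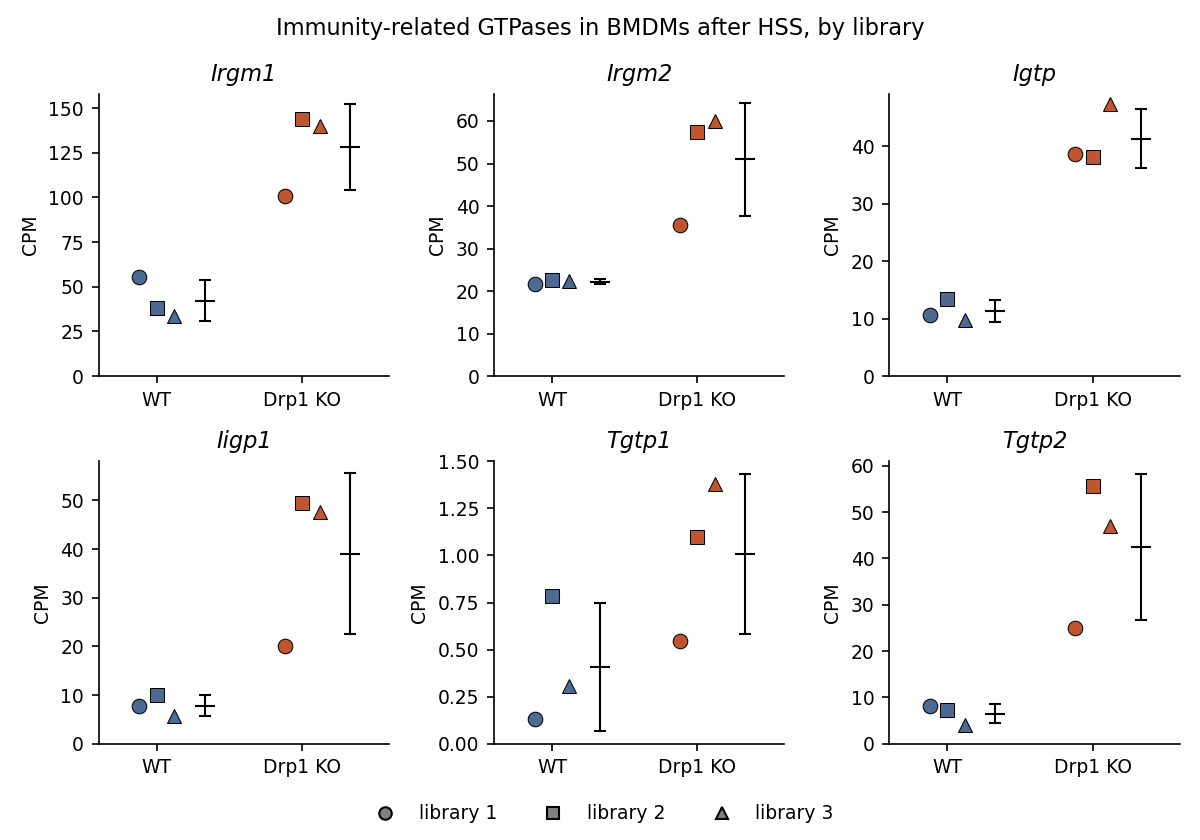
Level of each IRG gene in CPM (linear axis from 0) in every library, with WT in blue and Drp1 KO in orange, marker shape for the library number, and mean ± SD beside the points (n = 3). Only *Tgtp1*, at 0.129 to 1.38 CPM, overlaps between genotypes, and Drp1 KO library 1 is the lowest of its group for every gene but *Igtp*.

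*Irgm1* (ENSMUSG00000046879, GRCm39 chromosome 11, 48752795 to 48763164, minus strand) is needed by mice to survive several vacuolar pathogens, and its loss leaves effector IRGs active on the wrong membranes. It was at 55.4, 38.0 and 33.4 CPM in WT libraries 1 to 3 and at 100.7, 143.7 and 140.2 CPM in Drp1 KO libraries 1 to 3. WT library 1 was the highest of its group and Drp1 KO library 1 the lowest, so that the groups came nearest to each other in this pair. The means were 42.3 ± 11.6 CPM and 128 ± 23.9 CPM (SD, n = 3 each), a log2FC of 1.60 (SE 0.195) or 3.04-fold. Without libraries 1 it was 1.99.

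*Irgm2* (ENSMUSG00000069874, chromosome 11, 58090444 to 58113615, plus strand) encodes a regulator found mainly on the Golgi. It was at 21.6, 22.7 and 22.4 CPM in WT libraries, which lay close together, and at 35.6, 57.3 and 59.9 CPM in Drp1 KO libraries. All Drp1 KO values were above all WT values, and Drp1 KO library 1 lay well below the others of its group. The means of 22.2 ± 0.566 CPM and 51.0 ± 13.4 CPM gave a log2FC of 1.20 (SE 0.176), the smallest of the 6 genes at 2.30-fold. Without libraries 1 it was 1.38.

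*Igtp* (ENSMUSG00000078853, chromosome 11, 58089840 to 58098417, plus strand) encodes Irgm3, a regulator of the endoplasmic reticulum and lipid droplets. It was at 10.6, 13.5 and 9.78 CPM in WT and at 38.7, 38.1 and 47.3 CPM in Drp1 KO libraries. Unlike the other genes, its Drp1 KO library 1 was not the lowest of the group. The means of 11.3 ± 1.95 CPM and 41.3 ± 5.16 CPM gave a log2FC of 1.87 with the smallest SE of the 6 genes, 0.149, or 3.66-fold. Without libraries 1 it was 1.88.

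*Igtp* and *Irgm2* lie next to each other on the same strand, and transcript Irgm2-201 starts inside *Igtp*. Its first exon (58090444 to 58090605) lies within the first exon of *Igtp* (58090119 to 58090605), and its second exon (58110290 to 58113615) is the last exon of all 3 *Irgm2* transcripts, so that Irgm2-201 joins the start of *Igtp* to the body of *Irgm2*. Transcripts Irgm2-202 and Irgm2-203 start downstream, at 58105854 and 58105789. Irgm2-201 was at 2.89, 1.91 and 0.750 CPM in WT libraries and at 17.4, 20.9 and 15.9 CPM in Drp1 KO libraries, with no overlap. It made up 13.4%, 8.44% and 3.41% of the *Irgm2* counts in WT and 49.0%, 36.5% and 26.4% in Drp1 KO libraries. Its means were 1.85 ± 1.07 CPM and 18.1 ± 2.60 CPM, a log2FC of 3.32 (SE 0.343). The other *Irgm2* transcripts together were at 18.7, 20.8 and 21.6 CPM in WT and at 18.2, 36.4 and 44.1 CPM in Drp1 KO libraries. Here Drp1 KO library 1 lay below all WT libraries, and the log2FC was 0.69 (SE 0.256). In this split, made after the data were seen, *Irgm2* without Irgm2-201 no longer met the threshold, though it did in the paired fit.

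How firmly kallisto can separate these transcripts depends on the sequence that is theirs alone. In the GENCODE sequences, whose ends differ a little from those the authors indexed, 31 of the 3458 stretches of 31 bases in Irgm2-201 occur in no other *Irgm2* transcript, and 24 of those also occur in *Igtp*, which leaves 7 that occur nowhere else. The split of *Irgm2* by first exon is uncertain for that reason, while the sum over its transcripts rests on more sequence, with 88.2% of its stretches found in no other gene. The share was 83.9% for *Igtp*, 97.3% for *Irgm1* and 93.0% for *Iigp1*.

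**Figure D3:**
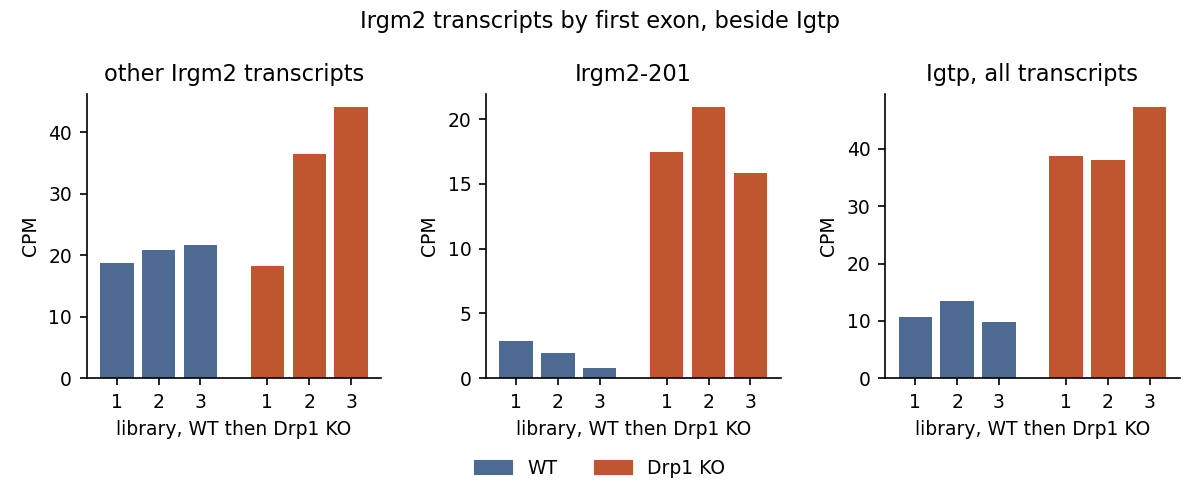
CPM (linear axes from 0, each with its own scale) in libraries 1 to 3 of WT (blue) and Drp1 KO (orange) for the *Irgm2* transcripts that start downstream, for Irgm2-201, which starts in the first exon of *Igtp*, and for *Igtp*. Irgm2-201 is at most 2.89 CPM in WT and at least 15.9 CPM in Drp1 KO libraries, and in Drp1 KO library 1 it is not low, unlike the other *Irgm2* transcripts at 18.2 CPM.

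Among the effectors, *Iigp1* (ENSMUSG00000054072, chromosome 18, 60506680 to 60525706, plus strand) encodes Irga6, which oligomerizes on vacuole membranes, and it is the only one of the 6 genes that is not on chromosome 11. It was at 7.81, 9.93 and 5.66 CPM in WT libraries and at 20.0, 49.6 and 47.6 CPM in Drp1 KO libraries. The groups did not overlap, and Drp1 KO library 1 was less than any other of its group. The means were 7.80 ± 2.14 CPM and 39.1 ± 16.6 CPM, a log2FC of 2.33 (SE 0.324) or 5.03-fold, and 2.64 without libraries 1. Transcripts Iigp1-201 and Iigp1-202, which differ by an internal exon, held most of its counts, with Iigp1-202 at 38.3% to 59.3% in WT and 54.0% to 65.4% in Drp1 KO BMDMs.

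*Tgtp2* (ENSMUSG00000078921, chromosome 11, 48948021 to 48955033, minus strand) had the largest difference of the 6 genes. It was at 8.11, 7.23 and 4.09 CPM in WT libraries and at 24.9, 55.5 and 47.1 CPM in Drp1 KO libraries. Every Drp1 KO library was above every WT library, and Drp1 KO library 1 was again the lowest of its group. The means were 6.48 ± 2.11 CPM and 42.5 ± 15.8 CPM, a log2FC of 2.73 (SE 0.313) or 6.62-fold, and 3.19 without libraries 1.

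*Tgtp1* (ENSMUSG00000078922, chromosome 11, 48876154 to 48884999, minus strand) is the near copy of *Tgtp2* and held few reads, with 3, 21 and 9 counts in WT and 12, 36 and 45 counts in Drp1 KO libraries. These are 0.129, 0.787 and 0.307 CPM and 0.545, 1.10 and 1.38 CPM, so that Drp1 KO library 1 lay below WT library 2. The log2FC was 1.30 (SE 0.576) and did not meet the threshold. It was 2.15 without WT library 2, 0.92 without WT library 1 and 1.19 without both libraries 1, and it turned to -0.13 with counts scaled by effective transcript length. Only 14.3% of the 31-base stretches of *Tgtp1* and 9.46% of those of *Tgtp2* occur in no other gene, so the split between the 2 genes is uncertain, and Tgtp1-201 also shares its first exon with a transcript of *Gm12185*. Summed, they were at 8.24, 8.02 and 4.40 CPM in WT and 25.5, 56.6 and 48.5 CPM in Drp1 KO libraries, a log2FC of 2.67 (SE 0.309).

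The pairs of libraries with the same number did not differ by the same ratio. For *Irgm1*, *Irgm2*, *Iigp1* and *Tgtp2* the ratio of Drp1 KO to WT was smallest in pair 1, at 1.82, 1.65, 2.56 and 3.07. In pair 3 the same genes had ratios of 4.20, 2.68, 8.42 and 11.5. *Igtp* had ratios of 3.65, 2.82 and 4.84 in pairs 1 to 3. In log2 CPM, Drp1 KO library 1 lay 0.85 below the mean of its group for *Iigp1*, 0.69 below for *Tgtp2*, 0.48 below for *Irgm2* and 0.33 below for *Irgm1*, and 0.09 below for *Igtp*, whose Drp1 KO library 2 was 0.11 below.

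Levels of different genes can be compared only per length, in the length-corrected TPM values that the authors deposited. In WT BMDMs *Irgm1* was the most abundant, at 31.2 ± 7.59 TPM, and its libraries did not overlap with those of *Tgtp2* at 16.6 ± 6.34 TPM. *Tgtp2*, *Irgm2* (9.67 ± 0.588 TPM) and *Igtp* (8.37 ± 1.27 TPM) overlapped with their neighbours in this order. *Iigp1* (5.12 ± 1.29 TPM) was below *Igtp* in every library, and *Tgtp1* (1.60 ± 0.878 TPM) was lowest. In Drp1 KO BMDMs the order of the mean TPM was *Tgtp2* (94.9 ± 45.2), *Irgm1* (90.6 ± 19.4), *Igtp* (29.1 ± 4.69), *Iigp1* (24.9 ± 11.5), *Irgm2* (20.98 ± 6.07) and *Tgtp1* (1.38 ± 0.941), which alone of the 6 had a lower mean TPM than in WT, with libraries of both genotypes overlapping. *Tgtp2* and *Irgm1* overlapped, as did *Igtp*, *Iigp1* and *Irgm2* each with the next, while *Irgm1* lay above *Igtp* and *Irgm2* above *Tgtp1* in every library. In TPM most of *Tgtp2* came from Tgtp2-202, an annotated RNA of 370 bases without a coding sequence, with 18.4% to 28.6% of its counts, and the longer Tgtp2-201 was at 2.07 to 3.47 TPM in WT and 11.0 to 24.2 TPM in Drp1 KO BMDMs.

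The list of other IRG family genes held 23 names, of which 11 were found and tested. It left out *Ifi47* (Irg47, or Irgd), an IRG effector, which is given after the list. The mean was higher in Drp1 KO BMDMs for 9 of the 11 and lower for 2. Of the 11, 4 had an adjusted p under 0.05, all of them higher (edgeR), where 3.36% of all genes were called in either direction. *Iigp1c*, a neighbour and near relative of *Iigp1*, had means of 9.16 ± 2.66 CPM (WT) and 35.3 ± 13.6 CPM (Drp1 KO; SD, n = 3 each), and its log2FC was 1.96 (SE 0.303, adjusted p = 0.00719, edgeR). *F830016B08Rik* rose by 1.68 (SE 0.252) and *Gm5431* by 1.42 (SE 0.197) on the log2 scale. *Gm12250*, also called Irgb10, whose protein opens bacterial membranes, is annotated as a transcribed pseudogene in GENCODE. It rose from 4.92 ± 0.659 CPM to 13.0 ± 4.67 CPM, a log2FC of 1.40 (SE 0.260, adjusted p = 0.0182, edgeR). Its call was lost without WT library 2 or 3 or Drp1 KO library 2 or 3 (adjusted p up to 0.0960).

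The remaining 7 genes of the list did not meet the threshold. *Gm12185* had a log2FC of 0.63, *9930111J21Rik2* 0.51, *Gm4841* 0.45, *9930111J21Rik1* 0.16 and *Gm12187* 1.27, with SEs of 0.246, 0.169, 0.280, 0.146 and 0.802. *Gm12187* was at most 0.489 CPM in any library. In *Gm12185* the sum covers transcripts that differed in opposite directions, with Gm12185-201 at 1.46, 1.67 and 1.73 TPM in WT and 0.259, 1.02 and 0.197 TPM in Drp1 KO libraries, and Gm12185-202 at 0 to 0.377 TPM and 1.34 to 3.35 TPM. The first exon of Gm12185-201 (48882831 to 48883147) is also that of Tgtp1-201, and neither *Gm12185* transcript has a 31-base stretch that occurs in it alone, so that this split is uncertain and was not tested. With libraries 1 left out, *Gm12185*, *9930111J21Rik1* and *9930111J21Rik2* met the threshold, so that 7 of the 11 did, where 10.5% of all genes did. *9930111J21Rik2* also met it in the paired fit (adjusted p = 0.00163, edgeR, from 0.00163 to 0.401 over other settings), and both it and *Gm12185* did without Drp1 KO library 1. Only 11.6% of the 31-base stretches of *9930111J21Rik1* and 30.3% of those of *9930111J21Rik2* occur in no other gene, so that the values of this pair are uncertain. *Irgq*, a distant member of the family, was at 30.2 ± 4.59 CPM and 28.8 ± 2.34 CPM, a log2FC of -0.07 (SE 0.128) that was 0.062 without WT library 1. *Irgc*, known from testis, was at most 0.273 CPM. The median log2FC of these 11 genes was 0.63. *Ifi47*, noticed for its profile after the values were seen, was at 7.20, 8.02 and 6.07 CPM in WT libraries and 15.2, 29.8 and 27.5 CPM in Drp1 KO libraries, with no overlap. Its log2FC was 1.77 (SE 0.236, adjusted p = 0.00320, edgeR, from 3.9e-11 to 0.0239 over other settings). Counted with the list, it makes 5 of 12 genes called, 8 of 12 without libraries 1, and a median of 0.95. RefSeq promoters were found for 7 of these 12 genes. Those of *Gm12185* and *Gm12250* held both motifs, the second at a wider spacing, that of *9930111J21Rik1* held an ISRE match only, and those of *Gm5431*, *Ifi47*, *9930111J21Rik2* and *Irgq* held neither, so that genes that rose were found with and without a match.

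**Figure D4:**
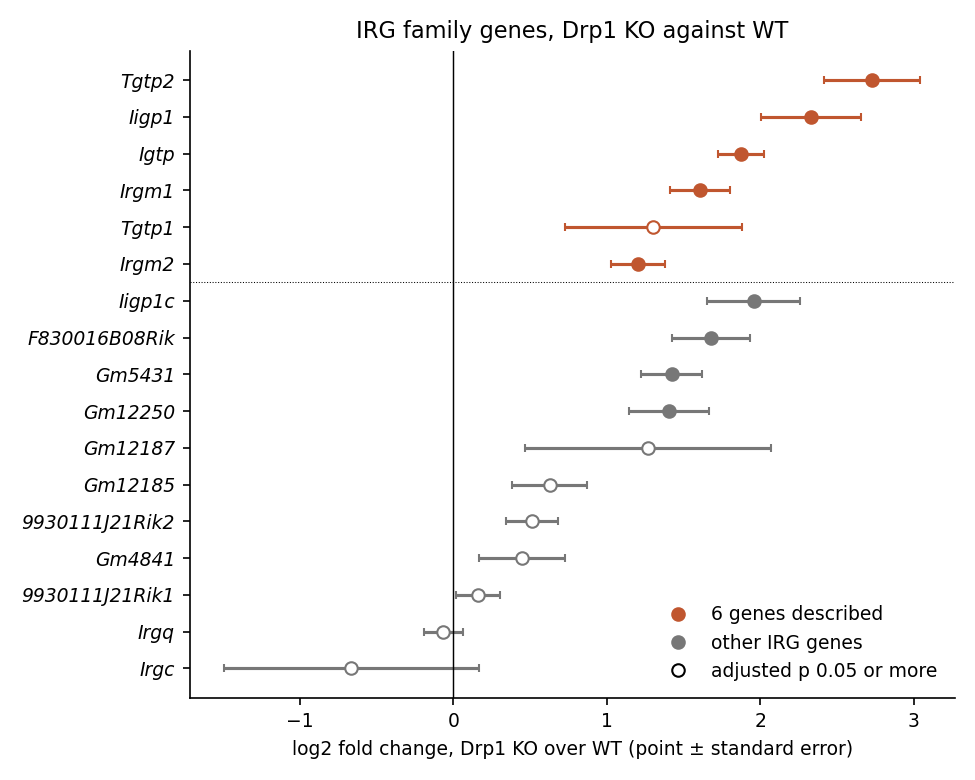
Log2 fold change of Drp1 KO over WT (points) with its standard error (bars) for the 6 IRG genes described (orange) and the 11 other IRG family genes tested (grey, without *Ifi47*), with open points where the adjusted p was 0.05 or more. The 6 genes range from 1.20 (*Irgm2*) to 2.73 (*Tgtp2*), and the others from -0.66 (*Irgc*) to 1.96 (*Iigp1c*).

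Guanylate-binding proteins (GBPs) are larger interferon-induced GTPases that act with IRGs at vacuoles. All 11 *Gbp* genes were tested, all had a higher mean in Drp1 KO BMDMs, and 6 had an adjusted p under 0.05 (edgeR), with a median log2FC of 1.38 over the 11. *Gbp6* rose from 14.8 ± 5.22 CPM to 73.5 ± 5.74 CPM (n = 3 each), a log2FC of 2.32 (SE 0.221, adjusted p = 0.000486, edgeR). *Gbp9* rose by 1.48 (SE 0.199) and *Gbp8* by 1.38 (SE 0.235), a call that *Gbp8* lost without WT library 2 or 3 (adjusted p = 0.0850 and 0.0691, edgeR). Leaving out WT library 2 or WT library 3 left 2 of them called, and leaving out Drp1 KO library 2 left 3, while 8 were called in the paired fit and 8 without libraries 1. Over all genes, 3.36% were called in the main fit, 12.0% in the paired fit and 10.5% without libraries 1.

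IRG transcription is driven by interferons through their receptors, JAK kinases, STAT proteins and IRF factors. Transcripts of the ligands were close to absent in these cells. Of 20 interferon genes found, 13 had no count in any library and 2 passed the filter, neither of which met the threshold. *Ifng* had 1 count in WT library 2, 1 in Drp1 KO library 3 and 0 in the others. *Ifnb1* had 5 counts in Drp1 KO library 3 and 0 in the other 5 libraries, where a count of 0 allows up to 3 counts, or 0.0917 to 0.136 CPM, as counting error alone. No difference in either was detectable at this depth.

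Of 19 genes for receptors, JAKs, STATs, IRFs and their inhibitors, 12 were higher and 7 lower, and 5 had an adjusted p under 0.05, all higher (edgeR). The median log2FC of the list was 0.14. *Stat2* and *Irf9*, whose proteins bind the ISRE together, rose by 1.33 (SE 0.152) and 0.98 (SE 0.115). *Irf1*, which binds the ISRE by itself, rose from 40.3 ± 4.65 CPM to 60.6 ± 4.88 CPM, a log2FC of 0.59 (SE 0.113, adjusted p = 0.0214, edgeR), and its call was lost with counts scaled by effective length and without any of WT libraries 2 and 3 and Drp1 KO libraries 2 and 3 (adjusted p up to 0.142). *Irf7* was called as well, at a log2FC of 3.09 (SE 0.452). WT library 1 was at 74.6 CPM and the other WT libraries at 21.2 and 19.3 CPM, against 349, 355 and 271 CPM in Drp1 KO libraries, and the fold of 8.51 became 16.0 when that library was left out. The receptor chains for interferon-gamma did not meet the threshold, with log2FC values of -0.21 for *Ifngr1* (SE 0.094) and -0.11 for *Ifngr2* (SE 0.095), but *Ifngr1* did without libraries 1 (adjusted p = 0.0323, edgeR, from 0.0323 to 0.618 over other settings). In the paired fit, 7 genes of the list were called higher and 1 lower, where 12.0% of all genes were called in either direction. Without libraries 1 there were 9 called, where 10.5% of all genes were, against 3.36% in the main fit.

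Other genes that interferon-gamma induces in macrophages did not all move with the IRGs. Of 22 such genes, 17 were higher and 5 lower, and 4 had an adjusted p under 0.05 (edgeR), all higher, with a median log2FC of 0.43 over the list. *Fcgr1*, an antibody receptor, rose by 1.34 (SE 0.111), *Nlrc5*, the activator of class I antigen presentation genes, by 0.94 (SE 0.139), and *B2m*, the light chain of class I molecules, by 0.82 (SE 0.119). The fourth was *Tap1*, at a log2FC of 0.91 (SE 0.185), whose call was lost without WT library 2 or 3 or Drp1 KO library 2 or 3 (adjusted p up to 0.174, edgeR). The calls of *B2m* and *Nlrc5* were lost without WT library 2 (adjusted p = 0.0681 and 0.0552, edgeR), and that of *B2m* also without WT library 3 (0.0552). *Ciita*, which turns on class II genes, had a log2FC of -0.12 (SE 0.257), and *Cxcl9* one of 0.02 (SE 0.390) at 0.613 ± 0.0840 CPM and 0.616 ± 0.186 CPM. *Ciita* and *Cxcl9* were singled out after their values were seen. The number called was 1 without WT library 2, 2 without WT library 3, 9 without WT library 1, 11 without both libraries 1 and 11 in the paired fit. The number of all genes called shifted too, from 621 (3.36%) in the main fit to 181, 217 and 744 without WT library 2, 3 and 1. It was 10.5% of all genes without both libraries 1 and 12.0% in the paired fit.

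Vacuoles and membranes are marked for IRG loading by the machinery that attaches ATG8 proteins such as LC3 to lipids. Of its 21 listed genes, 19 were tested, 12 higher and 7 lower, with a median log2FC of 0.05. None had an adjusted p under 0.05 with edgeR, where 3 had an unadjusted p under 0.05 (16.4% of all genes tested did), and DESeq2 called 1 (8.80% of the genes it gave an adjusted p). Leaving out WT library 1 gave 1 call, and leaving out Drp1 KO library 1 gave 2. In the paired fit, 4 were called higher and 1 lower, where 12.0% of all genes were called in either direction, and without libraries 1 there were 3 called, where 10.5% of all genes were.

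**Figure D5:**
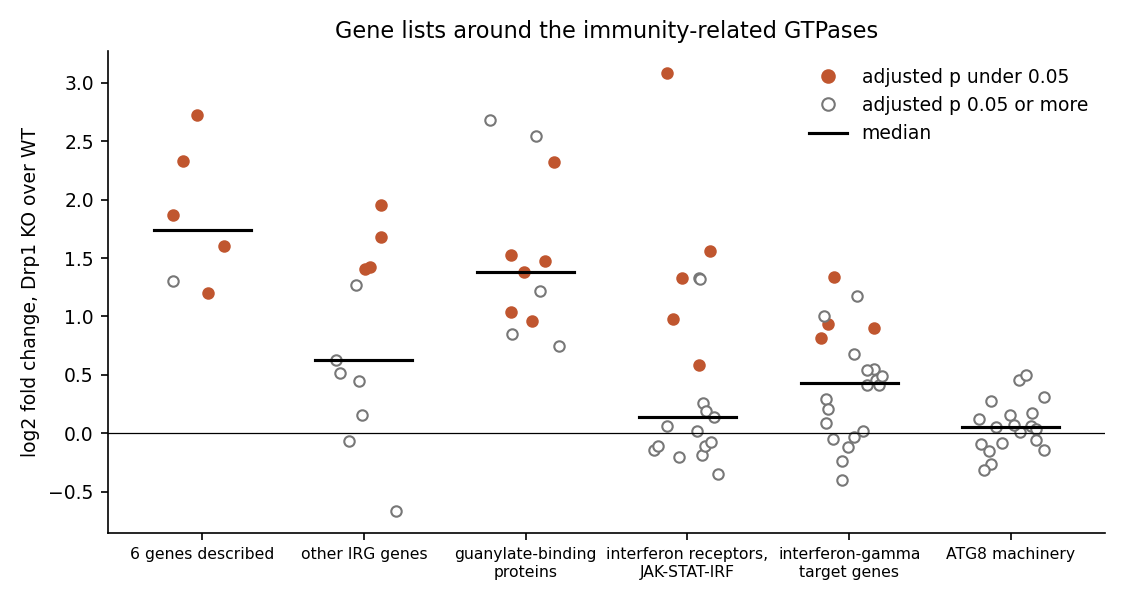
Log2 fold change of Drp1 KO over WT for each tested gene of 6 lists (points), filled where the adjusted p was under 0.05 (edgeR), with the median of each list as a bar. The medians are 1.74 for the 6 IRG genes, 0.63 for other IRG genes (without *Ifi47*), 1.38 for GBPs, 0.14 for the receptor and JAK-STAT-IRF list, 0.43 for interferon-gamma target genes and 0.05 for the ATG8 machinery.

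Genes with a profile over the 6 libraries most like that of the IRG genes were found by the root mean square difference of log2 CPM, each gene centred on its own mean, among 12243 other genes at 1 CPM or more. The measure uses the genotype contrast and all points share the same 6 libraries, so it is a description. Nearest to the mean profile of the 6 genes were *Ifi47* (0.107), *Mx2* (0.122), *Cmpk2* (0.125), *Ifit3b* (0.182) and *Rsad2* (0.188), whose log2FCs lay between 1.71 and 2.09. All are interferon-stimulated genes, and *Ifi47* is itself an IRG effector. The nearest gene was *Mx1* for *Igtp* (0.149), *Ifi203* for *Irgm1* (0.102), *Slfn8* for *Irgm2* (0.0829), *Ifit1* for *Iigp1* (0.133) and *Ifi44* for *Tgtp2* (0.216). For *Tgtp1*, with few counts, it was *Atp6-ps* at 0.307.

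Markers of other cells were read beside these results. Of 10 neutrophil markers, 7 were tested, and all 7 were higher in Drp1 KO BMDMs. None was called in the main fit (edgeR), and 4 had an unadjusted p under 0.05, where 16.4% of all genes did. The paired fit called 4 (12.0% of all genes), the fit without libraries 1 called 4 (10.5%) and DESeq2 called 2 (8.80%). The summed level of the neutrophil markers was 7.50, 19.9 and 22.2 CPM in WT libraries 1 to 3 and 21.3, 49.4 and 47.6 CPM in Drp1 KO libraries 1 to 3, lowest in library 1 of each group. *Ly6g*, which defines neutrophils, had no count in any library. Lymphocyte markers, of which 7 of 12 were tested, summed to 312 to 329 CPM in WT and 128 to 253 CPM in Drp1 KO, nearly all of it *Cd4*. None was called by edgeR in the main fit, where *Cd4* had a log2FC of -0.90 (SE 0.222). With edgeR, *Cd4* was called in the paired fit, with no filter beyond 1 count and without Drp1 KO library 2 (log2FC of -1.28). It was also the 1 gene of the list that DESeq2 called (adjusted p = 0.000933). *Ncr1*, which defines NK cells, had no count in any library. Dendritic cell markers, 7 of 9 tested, summed to 48.9 to 67.8 CPM and 35.4 to 55.8 CPM, and fibroblast markers, 6 of 7 tested, to 1.99 to 3.45 CPM and 2.05 to 2.36 CPM, with none called in either by edgeR or DESeq2 and 2 and 0 at an unadjusted p under 0.05. Among the macrophage markers *Fcgr1* was called higher and *Mertk*, *Csf1r* and *Mrc1* lower. The last 3 genes lost their calls without WT library 2 or 3 or Drp1 KO library 2 or 3 (adjusted p up to 0.163, edgeR). *Csf1r* and *Mrc1* also lost theirs without WT library 1 and with counts scaled by effective length (adjusted p up to 0.210, edgeR). The part of these differences in the IRG levels was not tested.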

How the data were processed

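Poly(A) RNA from 3 WT and 3 Drp1 KO BMDM cultures was sequenced with paired-end reads. Per the labels, cultures grew to day 7 in medium with 10% serum and 10% L929 supernatant and then spent 8 hours in HSS at 2.1% oxygen, while the study's methods give other values for the supernatant and oxygen. The authors quantified reads with kallisto 0.46.1 (version from the submitters' processing notes) on Ensembl cDNA of GRCm39 and deposited, for each of 116873 transcripts, an estimated count and a TPM value. The strand option and the Ensembl release are not given in the sources used here.

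Of the transcripts, 99.4% matched the GENCODE vM39 annotation by identifier, on 36137 genes, and the others held at most 0.575% of the counts of a library and were left out. The estimated counts of a gene's transcripts were summed and rounded to integers for the count test. A gene needed a total of 10 counts or more and was tested with edgeR 4.0.16 in R 4.3.3 (TMM, quasi-likelihood test, no covariate), with Benjamini-Hochberg adjustment over all 18506 genes and a threshold of 0.05, which is what "called" means. SE is the absolute log2FC over the root of the F statistic. The script was tested on simulated data. A count of 0 was taken to allow 3 counts, and intervals of this kind cover counting error only. Libraries held 24269850, 26211835 and 28650715 (WT) and 23389488, 32231206 and 32153112 (Drp1 KO) estimated reads, and the less deeply sequenced Drp1 KO library 1 has the larger floor, 0.136 CPM.

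Deviations from the group mean correlated at 0.510, 0.204 and 0.298 between libraries of the same number, over 12248 genes, and from -0.443 to 0.326 between different numbers. As each of the first was over 0.1, libraries of 1 number were treated as a pair, on the evidence of the data only.

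The 6 genes and all lists were chosen with earlier results of these data known. Genes named are the 6, the targeted gene, every tested gene of the IRG list, set genes of the interferon pathway, the 3 called genes of each other list with the smallest p, and the genes of nearest profile. Any other gene named was chosen after its values were seen. Some listed genes are not reported here by name. Alternatives were median-of-ratios size factors, scaling by library size alone, no filter beyond 1 count, filterByExpr, DESeq2 1.42.0, counts scaled by effective length, the replicate block, each library left out, the sum of *Tgtp1* and *Tgtp2*, and, added after seeing the data, both libraries 1 left out and *Irgm2* without Irgm2-201.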

Additional observations from a re-analysis of the deposited data

How the results depend on the processing

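The number of IRG genes called was 5 of 6 under all 14 other settings run on the gene counts. For a part of the named genes, 421 values of single genes were taken under other settings. Of these, 395 kept their direction and side of the threshold, 15 lost the call, 9 gained it and 2 reversed. The reversed values were *Tgtp1* at -0.13 with counts scaled by effective length and *Irgq* at 0.062 without WT library 1 (from -0.15 to 0.062 with each library left out). *Irgm2* without Irgm2-201 (0.69) was among those that lost the call. The 421 values leave out the genes of nearest profile and genes named after their values were seen. Among the latter, *Tap1*, *Mertk*, *Csf1r* and *Mrc1* each lost the call under several settings, and *Cd4* gained it under several, so the tally understates such changes. All genes called, 621 in the main fit, numbered 1065 with no filter beyond 1 count, 1155 with DESeq2, 2212 with the replicate block, which treats libraries of the same number as pairs, and 1880 without both libraries 1, and 181 to 904 with each library left out in turn (181 and 217 without WT library 2 or 3, 268 and 348 without Drp1 KO library 2 or 3). The block gave 8 receptor and JAK-STAT-IRF genes, 11 interferon-gamma target genes and 5 genes of the ATG8 machinery, against 5, 4 and 0. Leaving out both libraries 1 gave 9, 11 and 3, and 7 other IRG genes against 4. Interferon-gamma target genes called numbered 8 with no filter beyond 1 count and 7 with DESeq2, and the ATG8 machinery 1 with each of these and with library size only. With each library left out in turn, the counts ran from 2 to 7 for GBPs, 1 to 9 for interferon-gamma target genes and 0 to 2 for the ATG8 machinery. The cause of these shifts was not tested. At this depth, genes near 3 counts per library, such as *Ifng* and *Ifnb1*, could not be compared.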
